A study of Bos taurus with 12 samples.

Results

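Insulin and rosiglitazone are the inducers on which a simplified adipogenic medium for bovine cells relies, and the data described here set the medium that lacks one directly against the medium that lacks the other. Of the 12 libraries in the series, the 6 from rDM 0% Ros and rDM 0% Ins were chosen by their labels, 3 for each medium, and no library from complete medium entered the test. The cells were bovine stromal vascular cells (SVC, labelled MSC), taken from subcutaneous brisket fat of Belgian Blue cattle and kept for 12 days in a serum-free medium. rDM 0% Ins held 5 μM rosiglitazone, 25 nM hydrocortisone and 17 nM progesterone but no insulin, and rDM 0% Ros held 10 μg/mL insulin with the same 25 nM hydrocortisone and 17 nM progesterone but no rosiglitazone. Each replicate letter, A, B or C, stands for 1 donor and 1 batch of mRNA extraction, and each donor gave 1 library in each medium. The other 6 libraries, used below for levels only, came from rDM, which held all 4 of these agents, and from rDM 0% HC/PR, which held insulin and rosiglitazone without hydrocortisone and progesterone. The methods give bovine donors as females of 2 to 6 years in one place and as cattle of both sexes aged from 1 to 7 years in another. Which age and sex each of these 3 donors had is not given in the sources used here.

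Rosiglitazone is a synthetic ligand of PPARγ, the nuclear receptor that drives fat cell differentiation, and it switches on genes for lipid uptake, storage and release. Insulin acts through its receptor at the cell surface, promotes uptake of glucose and synthesis of lipid, and restrains transcription factors of the FOXO family. A cell in rDM 0% Ins therefore met a PPARγ ligand without the hormone, and a cell in rDM 0% Ros met the hormone without the synthetic ligand. The tables carry Ensembl identifiers, and the RefSeq table used here paired 0 of the 22372 gene identifiers and 0 of the 38030 transcript identifiers with a symbol. The genes are therefore described by their levels and directions. The identity of the cells was not checked against marker genes for the same reason. These are bulk libraries, in which fewer fat cells and less of a transcript in each cell cannot be told apart.

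The depth was between 302754 and 578595 estimated reads in the libraries of rDM 0% Ins and between 333466 and 537936 in those of rDM 0% Ros. The values are CPM, the reads of a gene scaled to the same total in every library, after the batch correction of the authors. In that correction the batch was the donor. Whether the medium was given to it as a term to keep is not stated in the sources used here. Its part in the calls and p-values below was not tested. The CPM values come from whole numbers, which are called adjusted reads here, since the correction changed them from the reads sequenced. In these 6 libraries 3 adjusted reads correspond to between 5.40 and 10.2 CPM. This limit covers counting error only, as does the counting interval given below for a transcript, because the cDNA was amplified and copies of 1 molecule can be read more than once.

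A gene was tested where 3 or more of the 6 libraries reached 5 CPM, which left 8213 genes. Of these, 95 differed between the media at an adjusted p under 0.05 (limma with the donor as a block), or 1.16% of those tested. In rDM 0% Ros 63 genes were lower than in rDM 0% Ins, which is 0.767% of those tested, and 32 were higher, which is 0.39%. Another 62 genes had an adjusted p between 0.05 and 0.1, and 851 had an unadjusted p under 0.05. All 95 genes had the same direction in the 3 donors, as had 2472 of the 8213 genes tested, and calling genes with a donor block favours those that do. For 31 of the 32 higher genes the libraries of rDM 0% Ros lay entirely above those of rDM 0% Ins, against 7.42% of all genes tested. For 62 of the 63 lower genes they lay entirely below, against 12.4% of all genes tested.

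The count rests on few libraries and depends on the donors. Without donor A, B or C, the genes called were 140, 48 and 25 lower and 98, 30 and 13 higher. With the replicate block left out, 106 were lower and 53 higher. Lower genes made up 66.3% of those called by limma, and 63.3% of those called when the CPM values were scaled by TMM. They made up 55.6% of those called by edgeR on the adjusted reads of the same table, a fit that also differed in its scaling and covered 4001 genes.

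The 2 directions differed in the size of the change. The lower genes had a median log2 fold change of -2.69, with quartiles of -5.10 and -1.99, and the higher genes one of 2.27, with quartiles of 1.72 and 2.58, where all genes tested had a median of -0.12. Fold changes are of rDM 0% Ros against rDM 0% Ins on the log2(CPM + 1) scale, which understates the change of low genes. A change beyond 4 on this scale was seen for 22 of the 63 lower genes and for 4 of the 32 higher genes. In either direction it was seen for 36 of the 8213 genes tested. Set at the limit of 3 adjusted reads, the 6 lower genes at 0 in every library of rDM 0% Ros leave the median at -2.65.

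**Figure D1:**
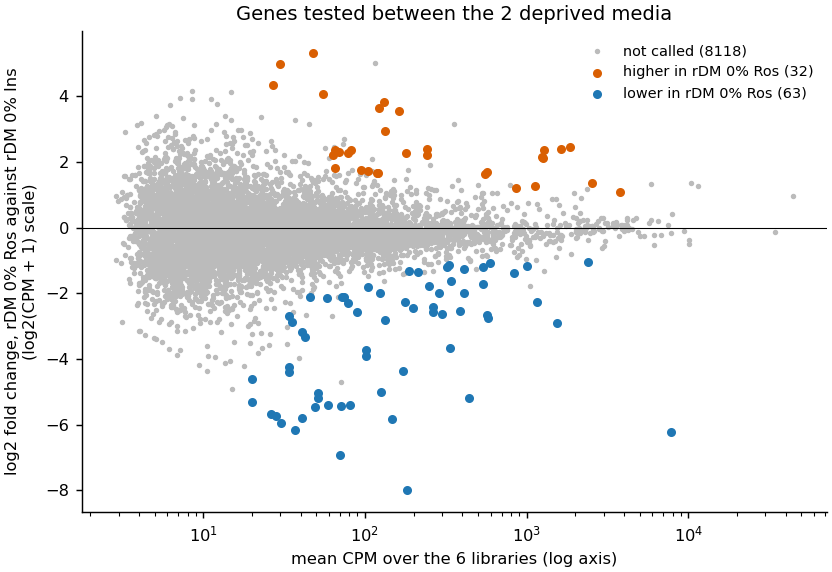
Each point is 1 of the 8213 genes tested, with its mean CPM over the 6 libraries on a log axis and its log2 fold change of rDM 0% Ros against rDM 0% Ins. The 63 genes called lower reach -7.99 and the 32 called higher reach 5.31, and no gene with a mean under 20 CPM was called.

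The 22 genes with the largest falls were mostly at or near 0 in cells kept without rosiglitazone. Their mean level was between 39.3 and 15400 CPM in rDM 0% Ins (median 100 CPM) and between 0 and 210 CPM in rDM 0% Ros (median 1.65 CPM). Among all 63 lower genes, 17 had at most 3 adjusted reads in each library of rDM 0% Ros, against 644 of the 8213 genes tested. Of these 17, 6 were at 0 in all of them, against 19 of the 8213. The other 41 lower genes had means between 7.43 and 1550 CPM in rDM 0% Ros, with a median of 83.3 CPM there and of 447 CPM in rDM 0% Ins.

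The largest fall was that of ENSBTAG00000020105. It was at 339, 319 and 433 CPM in donors A, B and C in rDM 0% Ins and at 1.90, 0 and 0 CPM in rDM 0% Ros. All libraries without insulin were high and those without rosiglitazone held 1 adjusted read between them. Its log2 fold change was -7.99 (standard error 0.55, 95% interval -9.23 to -6.74, adjusted p = 5e-04 from limma). In rDM it was at 861 ± 132 CPM (SD, n = 3).

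The fall of ENSBTAG00000008493 was the second in size. Its levels were 55.8, 228 and 135 CPM in rDM 0% Ins and 0 CPM in each library of rDM 0% Ros. Against the mean of the levels that 3 adjusted reads represent in those libraries, 7.58 CPM, it was at least 18.4-fold lower. Its log2 fold change was -6.92 (standard error 0.74, 95% interval -8.59 to -5.25, adjusted p = 0.00318 from limma). With a pseudocount of 0.1 the adjusted p was 0.0518. This gene differed from the first in its level under complete medium, since it was at 125 ± 88.0 CPM (SD, n = 3) in rDM, where the mean of rDM 0% Ins was 140 ± 86.1 CPM (SD, n = 3). It was at 10.6 ± 5.75 CPM (SD, n = 3) in rDM 0% HC/PR.

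One of the 63 genes was much more abundant than the others, and it is described here by its rank, since its values chose it. It was at 16214, 9649 and 20272 CPM in rDM 0% Ins and at 129, 174 and 325 CPM in rDM 0% Ros. The 2 media did not overlap, and the lowest library without insulin lay far above the highest without rosiglitazone. It changed by -6.23 on the log2 scale (standard error 0.26, 95% interval -6.82 to -5.65) and its adjusted p of 1.79e-05 was the smallest of all genes (limma). In rDM the gene was at 32988 ± 1093 CPM (SD, n = 3), so that both deprived media lay below complete medium. It was the only 1 of the 20 most abundant genes tested that was called, and 5 of the 100 most abundant were.

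Of the 32 higher genes, none was at 0 in all libraries of rDM 0% Ins, against 8 of the 8213 genes tested. In at least 1 of these libraries 4 were at 0, against 889 of the 8213. At most 3 adjusted reads in each were held by 2, against 651 of the 8213. The median level of the 32 genes was 52.1 CPM in rDM 0% Ins and 240 CPM in rDM 0% Ros. The 4 genes with a change beyond 4 on the log2 scale were low, with means between 52.2 and 101 CPM in rDM 0% Ros and between 1.73 and 9.39 CPM in rDM 0% Ins.

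ENSBTAG00000018347 had the largest rise. It was at 98.6, 147 and 34.1 CPM in rDM 0% Ros and at 7.20, 0 and 0 CPM in rDM 0% Ins. Donors A, B and C all had more of it without rosiglitazone, and only donor A was above 0 without insulin. The log2 fold change was 5.31 (standard error 0.81, 95% interval 3.48 to 7.15, adjusted p = 0.0181 from limma). At equal depth the adjusted p was 0.117, and with a pseudocount of 0.1 it was 0.128. The means in rDM and rDM 0% HC/PR, 14.2 ± 7.25 and 55.7 ± 37.8 CPM (SD, n = 3), lay between those of the deprived media compared here.

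ENSBTAG00000021467 followed, at 68.3, 55.1 and 49.8 CPM in rDM 0% Ros and 5.40, 0 and 0 CPM in rDM 0% Ins. The 3 libraries without rosiglitazone were close to each other, and those without insulin held 3 adjusted reads in all. Its log2 fold change was 4.97 (standard error 0.79, 95% interval 3.17 to 6.77, adjusted p = 0.0222 from limma). The adjusted p was 0.103 without donor C, 0.0917 at equal depth and 0.145 with a pseudocount of 0.1. In rDM this gene was at 10.9 ± 3.32 CPM (SD, n = 3), between the 2 deprived media.

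The most abundant of the 32 higher genes had the smallest change of them. It was at 5045, 5151 and 5341 CPM in rDM 0% Ros and at 2516, 2490 and 2320 CPM in rDM 0% Ins, and the spread within each medium was small beside the difference. Its log2 fold change was 1.08 (standard error 0.19, 95% interval 0.65 to 1.52, adjusted p = 0.0373 from limma). The call was lost in 7 of 17 alternatives, with an adjusted p of up to 0.296 when donor C was left out and of 0.0746 when donor B was. The libraries of rDM varied far more, at 2803, 7339 and 3832 CPM, and their range covered the levels in rDM 0% Ros, while the libraries of rDM 0% Ins lay below all of them.

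**Figure D2:**
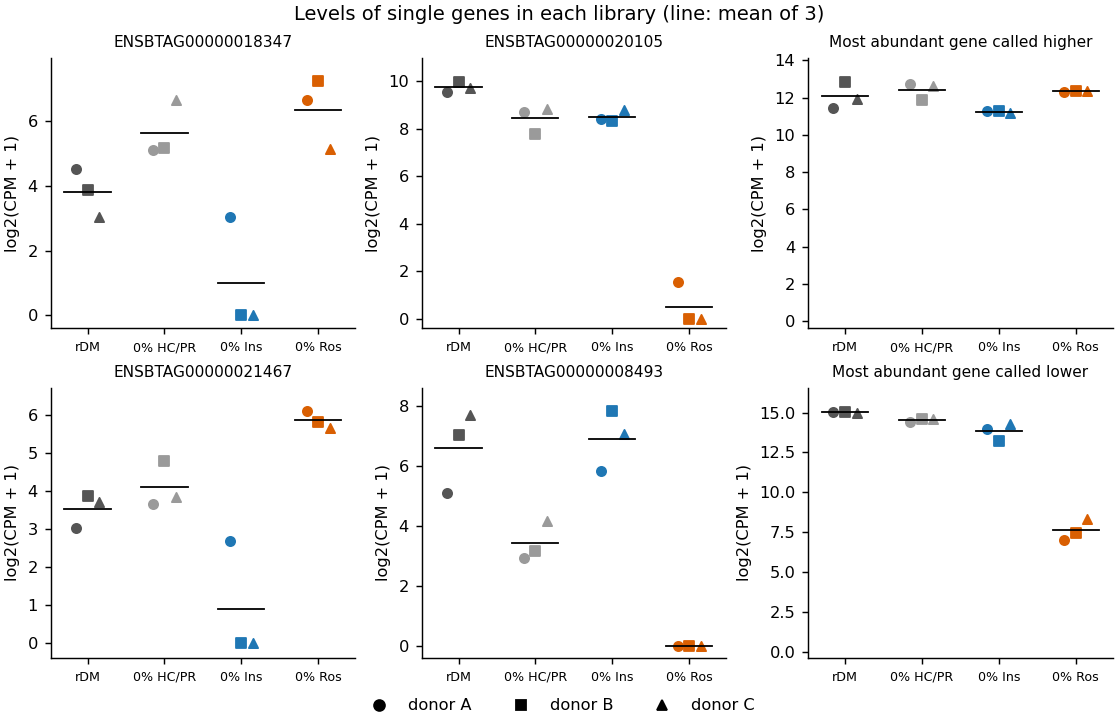
Levels of the 2 largest rises (left), the 2 largest falls (middle) and the most abundant gene called in each direction (right), as log2(CPM + 1) for each library and medium, with the mean of 3 as a line. The falls lie near 0 in rDM 0% Ros, except the most abundant gene, which keeps 129 to 325 CPM there.

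Summed over the genes called, the shift took a visible share of all CPM. The 63 lower genes took 4.13%, 3.68% and 5.10% of all CPM in donors A, B and C in rDM 0% Ins and 0.635%, 0.704% and 0.824% in rDM 0% Ros. Without the most abundant of them the means were 2.76% ± 0.284 (SD, n = 3) and 0.700% ± 0.0852 (SD, n = 3), so that the other 62 genes also took a larger share without insulin than without rosiglitazone. The 32 higher genes took 1.14%, 0.714% and 0.829% in rDM 0% Ins and 3.06%, 2.75% and 2.91% in rDM 0% Ros. In rDM the 63 genes took 7.77% ± 0.363 (SD, n = 3) and the 32 genes 1.29% ± 0.322 (SD, n = 3). These sums describe genes that were chosen for their difference between the 2 deprived media, and no test was made on them.

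**Figure D3:**
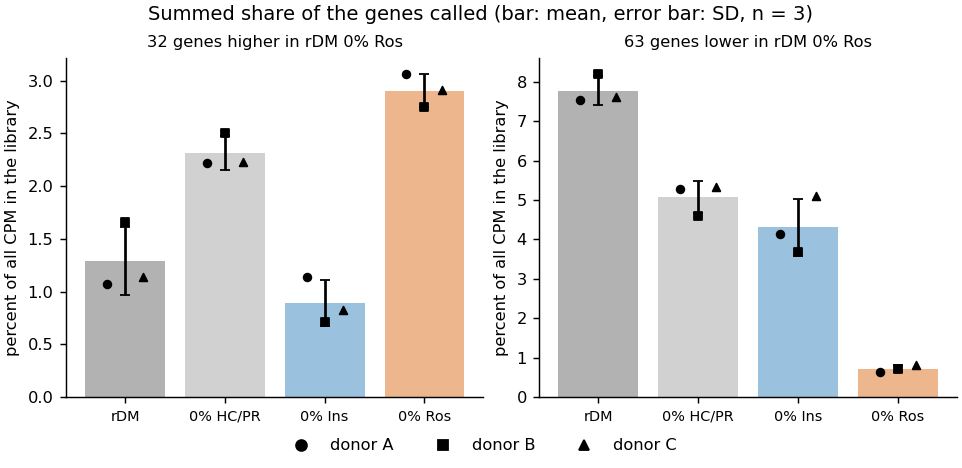
Share of all CPM in each library taken by the 32 genes called higher and the 63 called lower in rDM 0% Ros, with bars for the mean and error bars for the SD of 3 donors. The lower genes took 7.77% in rDM, 4.30% in rDM 0% Ins and 0.721% in rDM 0% Ros.

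The levels in rDM, which was not in the fit that chose the genes, can be set beside those in the deprived media. The genes were chosen for a difference between the deprived media, so genes changed alike in both are left out. The values below thus describe these genes and not how far each medium as a whole lay from rDM. For the 63 lower genes, the median log2 difference from rDM was -3.30 in rDM 0% Ros and -0.38 in rDM 0% Ins. For the 32 higher genes these medians were 1.60 and -0.55. Over all genes tested they were 0.14 and 0.23. On the log2(CPM + 1) scale rDM lay nearer to rDM 0% Ins than to rDM 0% Ros for 53 of the 63 lower genes and 24 of the 32 higher genes, against 53.7% of all genes tested. The 3 libraries of rDM enter both differences, which are given side by side and were not tested against each other.

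The lower genes were of several kinds in this respect. In 41 of the 63, the mean CPM in rDM was above that in both deprived media, against 21.0% of all genes tested. In 16 rDM lay between them, against 28.9% in either order, and in 6 it lay below both, against 50.1%. These are counts of means, some of which were close together, and rDM 0% Ins was not tested against rDM. Of the 22 genes with the largest falls, 9 were at a higher mean level in rDM 0% Ins than in rDM, as were 5578 of the 8213 genes tested. All 22 were lower in rDM 0% Ros than in rDM, as were 3188 of the 8213 genes tested. Of the 32 higher genes, 26 had their rDM level between the deprived media, 6 had it below both, and 0 had it above both.

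The levels without hydrocortisone and progesterone can be set against rDM in the same way. In rDM 0% HC/PR 59 of the 63 lower genes had a mean CPM below that in rDM, against 47.3% of all genes tested, and 31 of the 32 higher genes had one above it, against 52.6% of all genes tested. By means of log2(CPM + 1) the counts were 60 of 63, against 50.4% of all genes tested, and 28 of 32, against 49.6%. The median log2 difference from rDM was -0.76 for the lower and 0.78 for the higher genes. No library of rDM or rDM 0% HC/PR was in the fit that chose the genes. They belong to the same donor batches, however, so the batch correction may have tied their values to those tested. The counts are therefore not independent of the choice, and they were not tested.

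**Figure D4:**
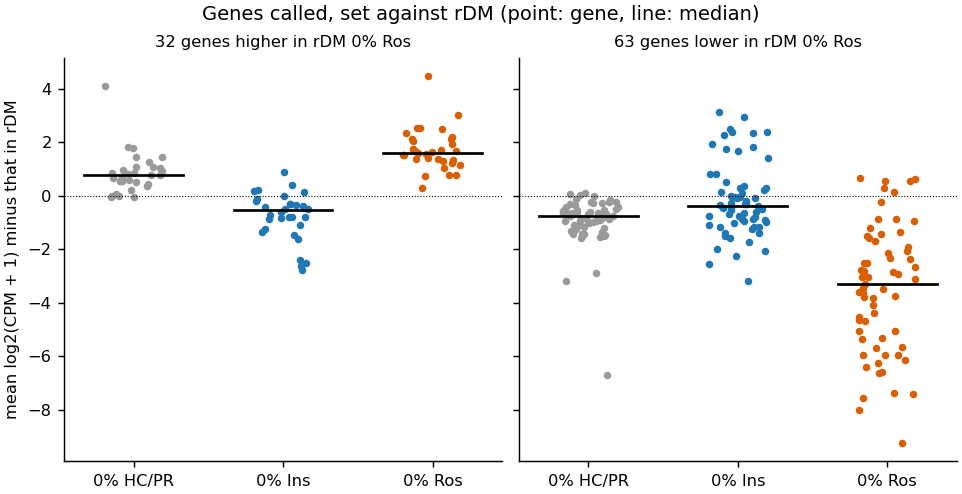
For the 32 higher and the 63 lower genes, each point is a gene's mean log2(CPM + 1) in a deprived medium minus that in rDM, and lines are medians. The lower genes have medians of -0.76 in rDM 0% HC/PR, -0.38 in rDM 0% Ins and -3.30 in rDM 0% Ros, and in rDM 0% Ins they spread on both sides of 0.

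The genes called were abundant ones, which is where the precision lay. Their median mean level was 132 CPM for the higher and 133 CPM for the lower genes, against 21.4 CPM for all genes tested. None of the 2099 genes with a mean under 10 CPM and none of the 1836 between 10 and 20 CPM was called, while 7.36% of the 299 genes at 500 CPM or more were. The median standard error of the log2 fold change fell from 1.05 in the first of these classes to 0.21 in the last, which gives 95% intervals of ±2.38 and ±0.48. A 4-fold difference (2 on the log2 scale) in a typical gene under 10 CPM was thus not detectable at this depth. Among genes at 500 CPM or more the calls were even, with 11 higher and 11 lower, and between 20 and 50 CPM 3 were higher and 15 lower.

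The media were compared again in the uncorrected transcripts, where the difference between donors had not been removed. With edgeR's quasi-likelihood test and the donor as a block, 0 of 4064 transcripts differed at an adjusted p under 0.05, and 362 had an unadjusted p under 0.05, of which 179 were lower and 183 higher in rDM 0% Ros. The smallest adjusted p was 0.0778. On the same transcripts and libraries DESeq2 called 65, or 1.6%, with 41 lower and 24 higher. When the libraries of rDM and rDM 0% HC/PR were added to the edgeR fit for a better estimate of the spread, 49 of 5372 transcripts differed, or 0.912%, with 43 lower and 6 higher. The 34 transcripts that both of these fits called are 52.3% of the first list and 69.4% of the second.

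The 4 transcripts with the smallest p in edgeR are given here by their length. A transcript of 3048 bases had 158, 135 and 185 reads in rDM 0% Ins and 1, 0 and 0 reads in rDM 0% Ros (adjusted p = 0.0778 from edgeR). The ratio of its summed reads, scaled to depth, was 450.0 with an exact counting interval of 80.4 to 17800. One of 740 bases had 308, 425 and 102 reads in rDM 0% Ins and 23, 18 and 14 in rDM 0% Ros. In both, every library without insulin was above every library without rosiglitazone, which choosing them by a small p favours.

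A transcript of 3977 bases varied more between the donors, with 191, 653 and 155 reads in rDM 0% Ins and 0, 4 and 0 in rDM 0% Ros. The fourth, of 2466 bases, went the other way, with 2, 15 and 7 reads in rDM 0% Ins and 46, 175 and 80 in rDM 0% Ros (adjusted p = 0.0919 from edgeR). The most abundant transcript called by DESeq2 or in the fit of 12 libraries had 754 bases. It had 10619, 4777 and 5400 reads in rDM 0% Ins and 135, 194 and 23 in rDM 0% Ros, with an adjusted p of 0.162 in edgeR on 6 libraries, 7.26e-07 in DESeq2 and 0.0121 in edgeR on 12 libraries. Its spread between donors was wide without rosiglitazone, from 57.1 to 582 CPM, where without insulin it was from 10130 to 18350 CPM.

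**Figure D5:**
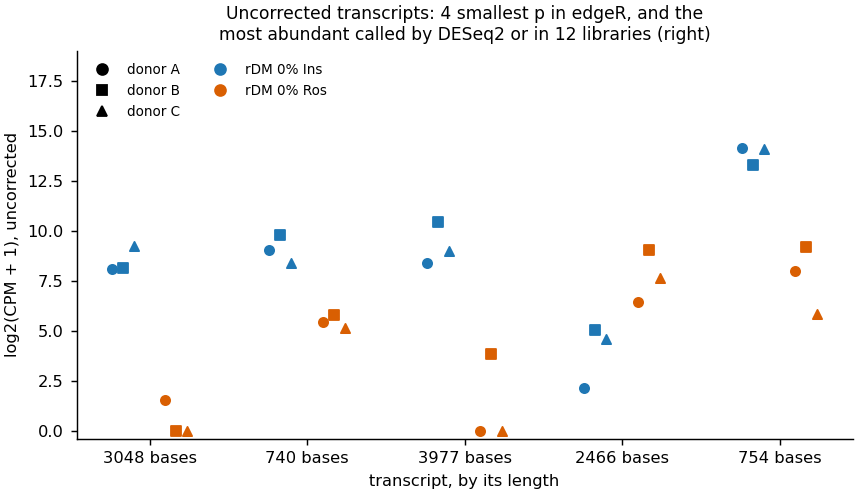
Uncorrected log2(CPM + 1) of the 4 transcripts with the smallest p in edgeR and, at the right, the most abundant one called by DESeq2 or in the fit of 12 libraries, for each donor in rDM 0% Ins and rDM 0% Ros. In each of the 5 transcripts the libraries of the 2 media do not overlap, which choosing them by p or by a call favours. The share over all transcripts is not given here.

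A library number in the deposited names is taken here as the sequencing pool, which the sample labels and methods do not give. By that number donors A and C each lay within 1 pool. The library of donor B in rDM 0% Ins was in the first pool and that in rDM 0% Ros in the second. With donor B left out, 48 genes were lower and 30 higher in donors A and C, and 65 of the 95 genes were among them. The libraries of this fit were also used to call the 95 genes. Much of that overlap is thus built in, and it cannot show what part the pool had. The median log2 difference of the 63 lower genes was -2.85 in donor A, -2.62 in donor B and -2.70 in donor C. For the 32 higher genes it was 1.73, 2.61 and 2.39. Over all genes tested these medians were 0.20, -0.44 and -0.19, so that donor B, whose libraries were in different pools, had the lowest. The part of the pool in that value was not tested.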

How the data were processed

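The authors base-called Nanopore reads of PCR-amplified cDNA with Guppy 5.0.16, mapped them to the bovine transcriptome (ARS-UCD1.2) with Minimap2 and quantified transcripts with Salmon. They deposited Salmon's estimated counts and TPM per transcript (TPM was not used) and a table of CPM per gene, for which transcripts were summed through tximport and ComBat-seq removed the batch. All values of the CPM table came from whole numbers (tolerance 0.01). These batch-adjusted reads were recovered, and their sums came to between 94.7% and 98.0% of the estimated reads in these 6 libraries.

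The main test was limma 3.58.1 in R 4.3.3 on log2(CPM + 1) of the 6 libraries, with a donor block and p-values adjusted by Benjamini-Hochberg. Its residual degrees of freedom were 2, and 8.83 after moderation. Uncorrected estimated counts were rounded and tested with edgeR 4.0.16 (TMM) and DESeq2 1.42.0. Tests were run on simulated data first. The labels and methods tie each letter to 1 donor. Libraries of the same donor deviated together in uncorrected transcripts (correlations 0.405, 0.237 and 0.248 in donors A, B and C) and not after correction (-0.25, -0.31 and -0.113).

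Genes named by identifier were the 2 largest changes in each direction among genes called, having 20 CPM or more on average and 1 direction in all donors. More identifiers were not printed, since none could be paired with a symbol. Gene lists, marker genes, positions and sequences were not analysed here for that reason. The comparison and the lists were chosen with earlier results of these data known.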

Additional observations from a re-analysis of the deposited data

How the results depend on the processing

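Lower genes outnumbered higher ones in 16 of 18 alternatives, the exceptions being edgeR on adjusted reads with no replicate block (107 lower, 113 higher) and edgeR with the block and no filter (121 and 125). In the same order, with 63 and 32 in the main test, the counts were 22 and 12 with a pseudocount of 0.1, 26 and 15 with at least 10 adjusted reads in each library, which leaves 2436 genes, 106 and 53 with no replicate block, 138 and 54 with all 12 libraries, 21 and 6 at equal depth (295288 adjusted reads), 25 and 10 at an adjusted p under 0.01, and 139 and 100 with DESeq2 on adjusted reads of 12 libraries and no replicate block. Leaving out a donor gave 25 to 140 lower and 13 to 98 higher genes, with the most without donor A and the fewest without donor C. With the donor as a block, leaving out 1 library equals leaving out its donor. The remaining alternatives, namely a pseudocount of 10, no filter in limma, TMM scaling of the CPM values, edgeR with the block under TMM or DESeq2 size factors, and DESeq2 with the block, gave 51 to 81 lower and 33 to 48 higher genes. The cause of the differences between these counts was not tested. Over all genes the log2 fold change had a median of -0.118 in limma, -0.039 with TMM scaling and 0.028 in edgeR on 4001 genes.

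In uncorrected transcripts, where the main count was 0, edgeR called 1 with no replicate block, 49 with 12 libraries and 253 with no filter, and DESeq2 called 65. edgeR called 0 with library size only, with DESeq2 size factors, at an adjusted p under 0.01 and without any 1 donor, where 272 to 397 transcripts had an unadjusted p under 0.05. The fall of ENSBTAG00000020105 and that of the most abundant gene passed the threshold in all 16 and 17 alternatives that gave a value, and none of the 6 genes tried (the 4 named and the most abundant in each direction) reversed. Counts per gene list were not run.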

Other observations

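Distances between the libraries were taken over the 8213 genes tested in the batch-corrected table, from which the donor batch had been removed, so they say nothing of how alike libraries of 1 donor were before. The Euclidean distance on the log2(CPM + 1) scale between rDM 0% Ros and rDM 0% Ins was 129.6 in donor A, 144.9 in donor B and 126.6 in donor C, and between different donors it ranged from 115 to 143 over 6 pairs. Within a medium it was 98.8 to 120 among the libraries of rDM 0% Ins and 103 to 124 among those of rDM 0% Ros. Pearson correlations across genes, which are not independent replicates, were 0.766 to 0.795 within donors between the media, 0.779 to 0.820 between donors and media, and 0.830 to 0.864 within a medium.

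Of the 95 genes called, 2 had libraries that overlapped between the media. One was higher in rDM 0% Ros in each donor, at 193, 49.0 and 191 CPM against 57.6, 11.2 and 67.7 CPM in rDM 0% Ins, and in both media donor B held the lowest level. The other was lower in each donor, at 15.2, 30.6 and 78.7 CPM against 59.4, 80.4 and 362 CPM, and in both media donor C held the highest.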
